A study of Rattus norvegicus with 12 samples.

Results

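Genes of mitosis and cytokinesis were followed in RNA-seq libraries of H9c2(2-1) cells, a line of rat heart myoblasts. The set holds 38 named genes, from the kinase Cdk1 to the contractile-ring protein Anln, and it was chosen by gene name among the 35966 rows of the expression table. All 38 are in the table and in the test over 12314 genes. The 12 libraries form 4 groups of 3. The GD cells were deprived of glucose for 36 h. The other deprived groups had the same 36 h of deprivation in the presence of 100 µM or 200 µM empagliflozin, an inhibitor of the renal sodium-glucose cotransporter. Control cells were kept in high-glucose DMEM with 10% fetal bovine serum. The labels give all cells as wild type, state no serum for the deprived groups and no solvent for the drug, and do not say whether the libraries of a group came from separate cultures. The p-values therefore measure the spread between these libraries, which may be technical.

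These genes run the last part of the cell cycle. Cyclin-bound CDK1 starts mitosis, kinetochores tie chromosomes to the spindle, the spindle checkpoint holds back the anaphase-promoting complex until all are attached, and the central spindle and contractile ring then divide the cell. Most are transcribed in late S, G2 and M phase and are nearly silent in resting cells, so that their RNA is commonly used as a sign of proliferation. In bulk RNA, fewer cycling cells and less of the RNA per cycling cell cannot be told apart.

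Values are transcripts per 1000000 (TPM), which are scaled to transcript length and to a common total, so that a level is relative to the rest of the library. The columns summed to between 946401 and 981390 TPM, and depth is unknown. Ribosomal protein and ferritin genes, 103 in all, took 37.6 to 41.5% of the TPM in GD libraries, 37.9 to 41.1% at 100 µM, 35.8 to 37.5% at 200 µM and 18.7 to 19.3% in control libraries. This weighs on the scale: the median of all tested genes in GD against control was -0.65 on the log2 scale as deposited and -0.00 after median-of-ratios scaling, which sets each library to its median ratio over genes. Counts are therefore given on both scales. GD replicate 3 had the fewest genes at 1 TPM or more, 10551, and was the lowest GD library in 28 of the 38 genes. The label of myocardial cell was set against markers. Of the skeletal myoblast markers, Des averaged 93.6 TPM, Myod1 58.8, Myog 20.5 and Acta1 17.95 TPM in control cells, while Myf5 and Pax7 were listed at 0 there. Of the 10 cardiomyocyte markers, Tnnt2 was at 142 TPM, Gata4 at 5.89 and Pln at 5.85 TPM in control cells, Tnni3 was at 0.96 TPM, and Myh6, Myh7, Actn2, Nkx2-5, Ryr2 and Nppa were at or near 0. The summed skeletal myoblast markers were at 26.68 to 29.54 TPM in GD libraries, 19.54 to 24.97 at 100 µM, 27.16 to 36.45 at 200 µM and 187.29 to 194.96 in control libraries. The cardiomyocyte markers, mostly Tnnt2, summed to 22.96 to 29.12 TPM in GD libraries, 19.5 to 32.76 at 100 µM, 32.4 to 66.3 at 200 µM and 144.05 to 166.68 in control libraries. The fibroblast list, mostly Col1a1 and Thy1, summed to 510.96 to 883.18 TPM in GD, 537.02 to 1004.33 at 100 µM, 1445.47 to 1782.59 at 200 µM and 9307.54 to 10487.3 in control libraries. Its members Lum, Pdgfra and Dcn averaged 2.39, 0.94 and 0.07 TPM in control. All 3 sums were lower in the deprived groups than in control, as the mitotic sum was. At 200 µM the cardiomyocyte and fibroblast sums lay above those of GD without overlap as deposited, whereas the sums of the 38 mitotic genes overlapped. None of these sums was computed on the median-of-ratios scale. Tnnt2 had 63.88, 29.54 and 34.08 TPM at 200 µM, so that 1 library set the top of the cardiomyocyte range. Of the fibroblast list Col1a1, Thy1, Dcn and Lum had higher means at 200 µM than in GD, and Pdgfra a lower one (0.33 and 0.61 TPM). The overlap of the mitotic sums rested on Incenp, named after its values were seen. Without it the mitotic sums were 50.86 to 60.92 TPM at 200 µM and 40.33 to 49.77 TPM in GD. Without Incenp and Cdk1 the mitotic sums overlapped again. The part of these markers in the results was not tested.

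Glucose deprivation came with a near loss of the mitotic programme. The labels state serum for control cells alone, so glucose and any serum difference cannot be told apart in comparisons with control. Summed over the 38 genes, the GD libraries held 65.18, 71.34 and 52.3 TPM, against 864.69, 822.42 and 841.23 TPM in control libraries. Of the 38 genes 37 fell, and the level kept in GD had a median of 4.42% of the control mean, with Anln lowest at 1.71% and Incenp highest at 77.3%. The GD mean was under 5% of control in 22 genes and under 10% in 33. The other 5 were Cdc25c at 15.9%, Aurka at 15.5%, Cdc25b at 15.4%, Mad2l1 at 10.9% and Incenp. In each of the 38 genes the 3 GD libraries lay below the 3 control libraries. The share of all tested genes separated in this way was not counted, and 67.6% of them were called lower. Of the 38 genes 16 entered the test through control libraries alone, as given below, so the separation is a description.

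Calls are from limma with a mean-variance trend on log2(TPM + 1), at a Benjamini-Hochberg adjusted p under 0.05 over the 12314 tested genes, and fold changes on this scale understate the change of low genes. The members called lower in GD against control numbered 37, where 67.6% of all tested genes were called lower and 14.0% higher. On the median-of-ratios scale the same 37 genes fell, beside 38.7% of all genes lower and 38% higher. The median log2 fold change of the 38 was -3.27, or -2.66 on the median-of-ratios scale, beside the medians of all genes given above. The filter asked for 1 TPM in at least 3 libraries. Of the 38 genes 16 passed it through control libraries alone and so had to be lower in the deprived ones, which makes the counts a description. The number called was also 37 with no filter, beside 9799 of 22319 genes lower and 1908 higher. The set was chosen with earlier results known, so this count is a description too.

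**Figure D1:**
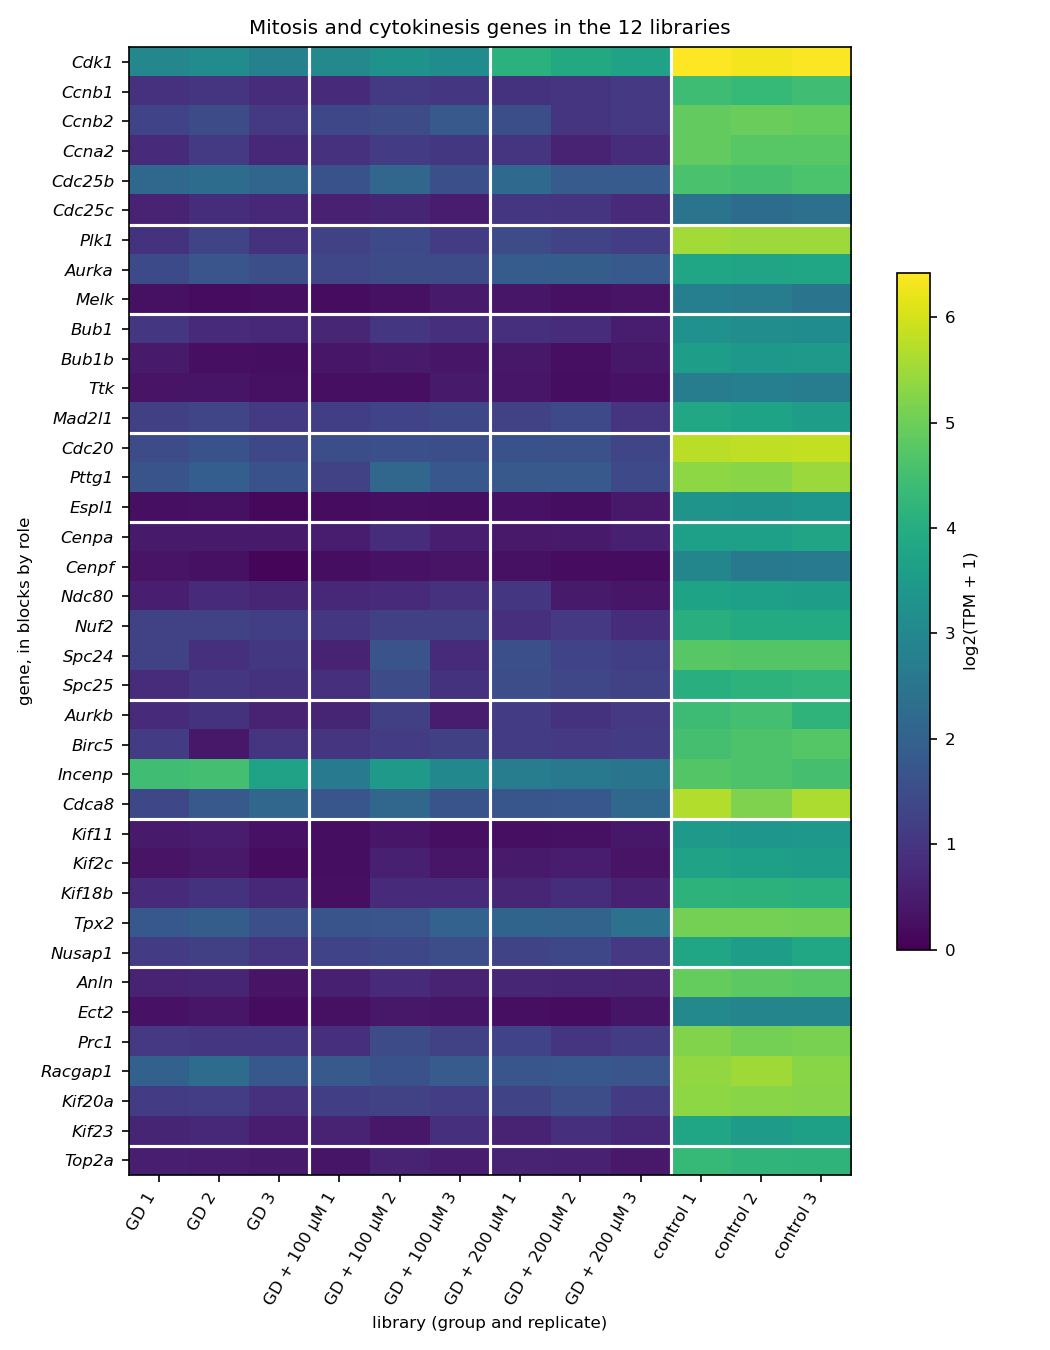
Level of each of the 38 genes (rows, in blocks by role) in each of the 12 libraries (columns), as log2(TPM + 1) by colour. Within each row the control columns are brighter than the 9 deprived columns, only slightly so for Incenp in GD replicates 1 and 2. Incenp and Cdk1 are the lightest rows among the deprived libraries.

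Cdk1 was the member with the highest level in control cells. This kinase, which drives entry into mitosis, had 6.90, 7.53 and 6.10 TPM in GD, 7.18, 8.69 and 7.71 at 100 µM, 16.25, 13.98 and 12.04 at 200 µM and 84.78, 78.42 and 82.41 in control libraries. The deprived libraries were all far below the control libraries, and those at 200 µM stood above the other deprived ones. In GD against control the log2 fold change was -3.40 (SE 0.11, limma adjusted p = 3.36e-11). Its cyclins fell too, Ccna2 by 3.93, Ccnb2 by 3.62 and Ccnb1 by 3.49 on the log2 scale. The phosphatases that release CDK1 from inhibition fell less, Cdc25b by 2.40 and Cdc25c by 1.64. Cdc25c had 0.56, 0.79 and 0.65 TPM in GD, 0.50, 0.58 and 0.44 at 100 µM, 1.01, 1.00 and 0.69 at 200 µM and 4.55, 3.84 and 4.19 in control libraries, the lowest control mean of the set at 4.19 TPM. All 3 deprived groups stayed below control for this gene.

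Plk1, a kinase of mitotic entry and centrosome maturation, had the largest fall on the log2(TPM + 1) scale, although Anln and Espl1 kept a smaller share of their control means (1.71% and 1.94%) than Plk1 (2.53%). Plk1 had 0.91, 1.5 and 0.92 TPM in GD, 1.42, 1.66 and 1.20 at 100 µM, 1.75, 1.51 and 1.26 at 200 µM and 44.96, 43.56 and 43.34 in control libraries. The deprived groups overlapped with each other and lay far from control (GD against control -4.42, SE 0.13, limma adjusted p = 1.41e-11). Aurka, the kinase of centrosomes and spindle poles, kept more. It had 1.73, 2.26 and 1.89 TPM in GD, 1.58, 1.79 and 1.83 at 100 µM, 2.64, 2.70 and 2.44 at 200 µM and 12.64, 12.35 and 12.89 in control libraries. Its 200 µM libraries lay above every other deprived library, and its log2 fold change in GD against control was -2.21 (SE 0.10). Melk, another kinase that peaks in mitosis, fell by 2.40.

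Checkpoint and anaphase genes fell together. Mad2l1, whose protein binds CDC20 to stop the anaphase-promoting complex, had 1.32, 1.53 and 1.12 TPM in GD, 1.30, 1.45 and 1.61 at 100 µM, 1.36, 1.67 and 0.96 at 200 µM and 13.19, 12.24 and 10.88 in control libraries. Its deprived groups overlapped, all under the control range (GD against control -2.50, SE 0.13). The checkpoint kinases Bub1 and Ttk fell by 2.34 and 2.41, and Bub1b, the BUBR1 subunit of the inhibitory complex, fell by 3.17. Cdc20, the activator that the checkpoint restrains, had 1.83, 2.05 and 1.64 TPM in GD, 1.91, 1.97 and 1.92 at 100 µM, 2.05, 2.04 and 1.52 at 200 µM and 53.50, 54.62 and 56.47 in control libraries. No deprived library came near control, and the deprived groups did not separate (GD against control -4.30, SE 0.11, limma adjusted p = 4.01e-12). Securin, Pttg1, fell by 3.62 and separase, Espl1, by 3.10, so that the inhibitor and the protease that cuts cohesin were both lower.

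At the kinetochore, the 4 subunits of the NDC80 complex, which grips microtubules, were all lower. Spc24 had 1.37, 0.81 and 1.07 TPM in GD, 0.54, 2.12 and 0.74 at 100 µM, 1.96, 1.46 and 1.29 at 200 µM and 25.91, 25.00 and 25.26 in control libraries. The 100 µM libraries spread widely around the GD values, and control was far above (GD against control -3.67, SE 0.22). Spc25 had 0.76, 1.01 and 0.91 TPM in GD, 0.81, 1.83 and 0.92 at 100 µM, 1.87, 1.60 and 1.39 at 200 µM and 15.66, 16.87 and 17.61 in control libraries. Nuf2 had 1.39, 1.38 and 1.27 TPM in GD, 1.02, 1.32 and 1.34 at 100 µM, 0.84, 1.11 and 0.78 at 200 µM and 15.56, 14.10 and 14.13 in control libraries. Among the deprived groups Spc25 had its highest and Nuf2 its lowest mean at 200 µM, although their proteins sit in the same complex. In GD against control Spc25 changed by -3.23 (SE 0.15), Nuf2 by -2.73 (SE 0.11) and Ndc80 by -2.98. The centromeric histone gene Cenpa fell by 3.2 and the large corona protein gene Cenpf by 2.48.

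The chromosomal passenger complex, which corrects faulty attachments and later guides cytokinesis, had the widest range of levels kept in GD, 3.44% to 77.3% of control. Its kinase Aurkb fell by 3.57, survivin, Birc5, by 3.79 and borealin, Cdca8, by 3.73. Incenp, the scaffold that holds and activates the kinase, had 21.02, 21.57 and 11.97 TPM in GD, 5.42, 9.86 and 7 at 100 µM, 5.58, 5.10 and 4.52 at 200 µM and 24.97, 23.54 and 22.03 in control libraries. GD replicates 1 and 2 lay just below control and GD replicate 3 well below them, while every library with empagliflozin was lower than every GD library. Incenp was the 1 member not called in GD against control, at -0.40 (SE 0.21, limma adjusted p = 0.0985) on the deposited scale, with the opposite sign on the median-of-ratios scale at 0.33 (adjusted p = 0.0887). Without GD replicate 2 it was called, at -0.53 (adjusted p = 0.0459). Incenp made up 22.9 to 32.2% of the summed TPM of the 38 genes in GD libraries, 12 to 15.3% at 100 µM, 8.16 to 8.51% at 200 µM and 2.62 to 2.89% in control libraries.

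Next to Incenp on the rat genome (RefSeq, GRCr8) lies Fth1, the ferritin heavy chain gene. Fth1 had 22389.5, 21901.4 and 26123.4 TPM in GD, 21452, 18774.4 and 22842.2 at 100 µM, 16942.7, 18439.8 and 18613.1 at 200 µM and 6281.36, 6548.76 and 6465.43 in control libraries. Relative to its control mean Fth1 was at 365% in GD, 327% at 100 µM and 280% at 200 µM. Incenp was at 77.3%, 31.6% and 21.5% in the same groups. Any part of Fth1 in the Incenp values was not tested. The strand setting of the counting is not given in the sources used here. For members that overlap another gene it is therefore unknown how fully the reads of the pair were kept apart. In RefSeq 13 of the 38 overlap another gene, and 8 a protein-coding one, among them Aurka with Fam210b, Spc25 with Nostrin, Plk1 with Ern2 and Cdc25c with Slbpl. Ern2 was listed at 0 TPM in each control library and at 0.02 to 0.06 TPM in GD. Ide, which overlaps Kif11, averaged 34.1 TPM in GD, where Kif11 averaged 0.34 TPM. The part of such partners in the members' values was not tested.

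Spindle, cytokinesis and topoisomerase genes completed the set. Tpx2, which nucleates spindle microtubules and activates Aurora A, had 2.42, 2.69 and 1.99 TPM in GD, 2.20, 2.25 and 3.02 at 100 µM, 3.22, 3.13 and 4.32 at 200 µM and 32.82, 32.82 and 32.10 in control libraries. Its 200 µM libraries were the highest deprived ones (GD against control -3.32, SE 0.13). The spindle motor Kif11 fell by 3, the microtubule depolymerases Kif2c and Kif18b by 3.31 each, and the spindle-stabilising Nusap1 by 2.60. Racgap1, the centralspindlin subunit that works with the motor Kif23, had 3.01, 3.82 and 2.41 TPM in GD, 2.48, 2.09 and 2.62 at 100 µM, 2.31, 2.36 and 2.26 at 200 µM and 40.99, 44.21 and 37.90 in control libraries. All deprived libraries were below 4 TPM (GD against control -3.38, SE 0.13). Kif23 itself fell by 3.02, the midzone bundler Prc1 by 4.10, the midzone motor Kif20a by 4.23, the RhoA activator Ect2 by 2.66 and the ring scaffold Anln by 4.27. Top2a, which untangles sister chromosomes, had 0.46, 0.43 and 0.39 TPM in GD, 0.28, 0.57 and 0.43 at 100 µM, 0.53, 0.51 and 0.36 at 200 µM and 18.73, 17.50 and 16.99 in control libraries. The deprived groups overlapped, with Top2a at -3.71 (SE 0.10) in GD against control.

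**Figure D2:**
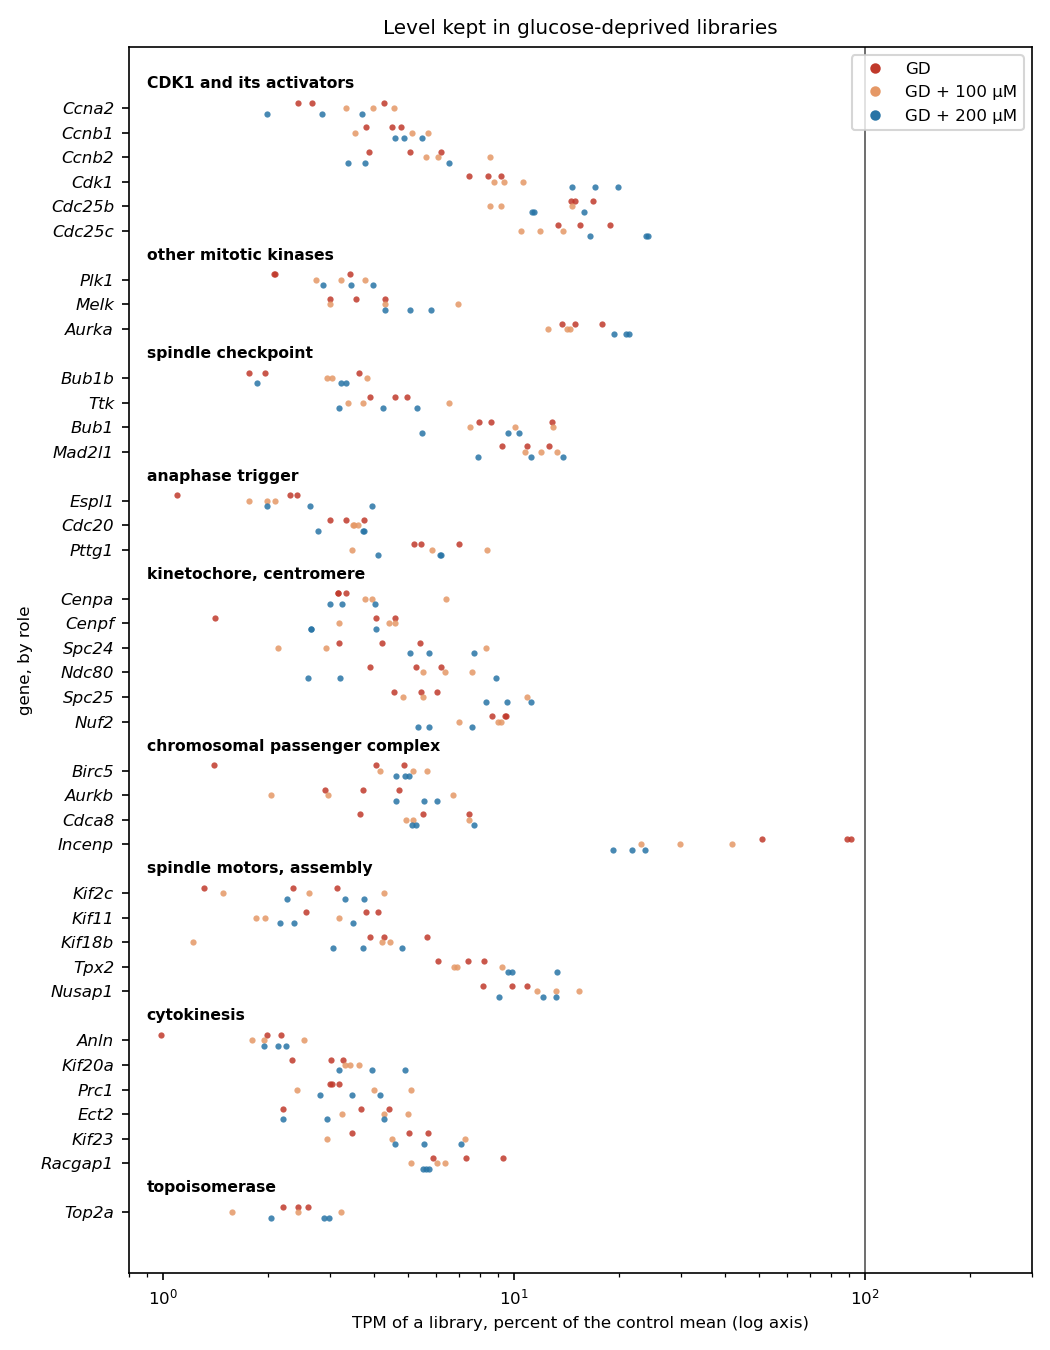
TPM of each deprived library as a percent of the control mean of its gene (log axis), with 1 point a library and genes grouped by role. Most genes lie between 1 and 10 percent in all 3 deprived groups, while Incenp is at a mean of 77.3% in GD, 31.6% at 100 µM and 21.5% at 200 µM.

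Because the genes moved together, their promoter windows are shown beside their levels. Genes of this phase are known to carry the cell cycle genes homology region (CHR, TTTGAA or TTTAAA), which the DREAM and MuvB complexes bind, often close to CCAAT boxes bound by NF-Y. RefSeq windows of GRCr8, running 250 bases before to 50 after the annotated start, were found for 33 of the 38 genes, as 34 windows, and not for Ccna2, Aurkb, Incenp, Tpx2 and Racgap1. They are printed 5′ to 3′ on the gene's strand for the member with the highest control level in each of 6 role groups, so that both the shared letters and the exceptions can be seen. Capitals mark both CHR forms and CCAAT boxes on either strand, and a box on the other strand reads ATTGG. The windows are chr20:19265043-19265342 on the plus strand for Cdk1, chr1:186147408-186147707 plus for Plk1, chr4:97236259-97236558 plus for Mad2l1, chr5:137255750-137256049 minus for Cdc20, chr8:28581250-28581549 minus for Spc24 and chr5:142483150-142483449 minus for Cdca8.
Cdk1: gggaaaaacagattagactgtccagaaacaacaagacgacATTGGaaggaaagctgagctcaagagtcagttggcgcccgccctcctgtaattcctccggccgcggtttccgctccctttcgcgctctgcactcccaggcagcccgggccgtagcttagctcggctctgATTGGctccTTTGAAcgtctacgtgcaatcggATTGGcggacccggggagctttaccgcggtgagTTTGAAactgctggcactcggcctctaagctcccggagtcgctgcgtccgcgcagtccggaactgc
Plk1: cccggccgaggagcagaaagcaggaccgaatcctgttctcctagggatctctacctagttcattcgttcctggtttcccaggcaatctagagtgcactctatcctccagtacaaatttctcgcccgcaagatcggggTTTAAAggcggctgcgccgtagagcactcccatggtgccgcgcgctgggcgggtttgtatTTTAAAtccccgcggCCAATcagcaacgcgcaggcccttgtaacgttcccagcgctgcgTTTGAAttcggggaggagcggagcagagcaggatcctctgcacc
Mad2l1: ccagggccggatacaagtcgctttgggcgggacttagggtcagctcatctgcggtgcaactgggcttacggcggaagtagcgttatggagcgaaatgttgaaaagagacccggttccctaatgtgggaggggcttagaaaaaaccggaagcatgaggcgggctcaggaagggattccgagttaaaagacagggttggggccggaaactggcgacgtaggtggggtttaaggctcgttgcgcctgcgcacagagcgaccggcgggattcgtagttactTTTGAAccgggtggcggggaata
Cdc20: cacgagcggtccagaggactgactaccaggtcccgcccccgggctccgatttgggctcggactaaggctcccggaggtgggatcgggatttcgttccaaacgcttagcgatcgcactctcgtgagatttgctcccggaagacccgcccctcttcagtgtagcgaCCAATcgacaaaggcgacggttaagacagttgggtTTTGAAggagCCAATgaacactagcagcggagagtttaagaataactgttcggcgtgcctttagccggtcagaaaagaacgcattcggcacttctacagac
Spc24: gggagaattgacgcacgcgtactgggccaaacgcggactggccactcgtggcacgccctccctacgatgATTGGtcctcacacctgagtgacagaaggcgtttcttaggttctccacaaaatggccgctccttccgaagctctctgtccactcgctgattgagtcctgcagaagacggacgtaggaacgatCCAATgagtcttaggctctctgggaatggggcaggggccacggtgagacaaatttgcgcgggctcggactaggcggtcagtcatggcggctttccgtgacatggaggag
Cdca8: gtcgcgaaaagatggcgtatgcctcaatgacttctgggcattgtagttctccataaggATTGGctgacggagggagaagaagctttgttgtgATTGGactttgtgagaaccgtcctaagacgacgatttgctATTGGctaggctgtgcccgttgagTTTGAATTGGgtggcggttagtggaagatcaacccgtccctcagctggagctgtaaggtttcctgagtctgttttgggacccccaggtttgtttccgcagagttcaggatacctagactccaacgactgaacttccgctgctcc

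The Cdk1 window holds 2 CHR-type matches and 3 CCAAT matches, while the Plk1 window holds 3 and 1. The Spc24 window has no CHR-type match and 2 CCAAT matches, and the Mad2l1 window has 1 CHR-type match and no CCAAT. In Cdca8 a CHR-type and a CCAAT match share 1 base. TTTGAA was found in 23 of 34 member windows (67.6%) and in 18.3% of all 33469 windows. TTTAAA, which is its own reverse complement, was found in 11 (32.4%), against 13.6% of all windows, and CCAAT in 23 (67.6%), against 37.5%. Either CHR form together with CCAAT was found in 21 member windows (61.8%) and in 11.3% of all windows. A CHR form within 50 bases of the start was found in 21 member windows (61.8%) and in 8.80% of all windows, and 3 member windows (8.82%) had no match at all, against 45.6% of all windows. These are letter matches, which show no binding.

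**Figure D3:**
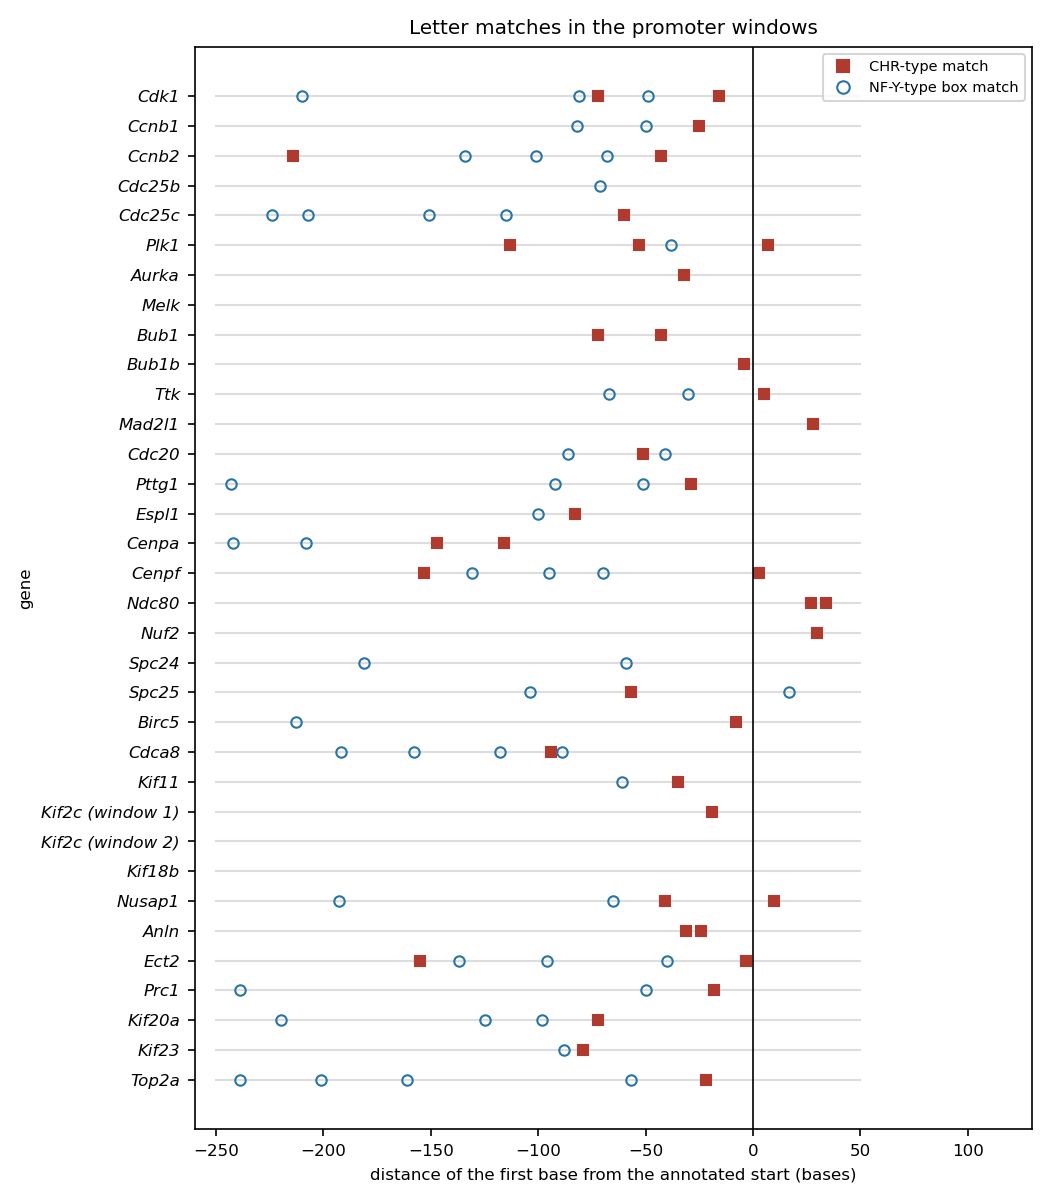
Position of CHR-type matches (squares, TTTGAA or TTTAAA) and CCAAT matches (circles) in 34 windows of 33 genes, in bases from the annotated start (vertical line). CHR-type matches gather near the start, with a median first base at -33.5, and CCAAT matches lie further upstream, with a median at -99.

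At 100 µM empagliflozin, Incenp was lower than in GD cells and no other member was called. Incenp fell by 1.18 on the log2 scale (SE 0.21, limma adjusted p = 0.00348), with means of 7.43 ± 2.25 TPM at 100 µM and 18.2 ± 5.39 TPM in GD (SD, n = 3 each). Among all tested genes 7.51% were called higher and 5.46% lower. On the median-of-ratios scale 2 members were lower, Incenp and Cdc25b (-0.44, adjusted p = 0.0465), beside 8.10% of all genes higher and 10.4% lower. The 37 genes not called had log2 fold changes between -0.40 and 0.29, with standard errors of 0.09 to 0.22, so that changes of this size were not resolved. The members' median was 0.05, beside 0.02 for all genes. Without GD replicate 3, or without the 100 µM replicate 2, 2 members were called. Of all 12314 tested genes, 861 were then higher and 1615 lower without GD replicate 3, and 721 and 628 without the 100 µM replicate 2.

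At 200 µM, Cdk1 rose and Incenp fell relative to GD, and 4 other members were called with smaller changes. Cdk1 averaged 14.09 ± 2.11 TPM at 200 µM and 6.84 ± 0.72 TPM in GD (SD, n = 3 each), a ratio of 2.06, with a log2 fold change of 0.94 (SE 0.11, limma adjusted p = 2.69e-05). It was still at 17.2% of the control mean, against 8.36% in GD. Incenp averaged 5.07 ± 0.53 TPM at 200 µM and 18.2 ± 5.39 TPM in GD, a change of -1.62 (SE 0.21, limma adjusted p = 5.22e-05). Both were called under each of the 23 alternatives, in which Cdk1 ranged between 0.74 and 1.04 on the log2 scale. The comparisons of 100 µM and 200 µM with GD share the GD libraries.

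In all, 6 members were called at 200 µM against GD. Higher were Cdk1, Spc25 (0.47, SE 0.15, adjusted p = 0.0264), Tpx2 (0.43, SE 0.13, adjusted p = 0.0179) and Aurka (0.28, SE 0.10, adjusted p = 0.0372), and lower were Incenp and Nuf2 (-0.30, SE 0.11, adjusted p = 0.0366), all by limma. That is 4 of 38 higher and 2 lower, beside 32.0% of all tested genes higher and 11.4% lower. On the median-of-ratios scale 1 was higher, Cdk1, and 3 lower, Incenp, Nuf2 and Racgap1 (-0.43, adjusted p = 0.00371), beside 22.7% of all genes higher and 24.0% lower. The members' median was 0.07, or -0.02 on the median-of-ratios scale, beside 0.14 for all genes as deposited. The 32 genes not called had log2 fold changes between -0.29 and 0.30.

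Single libraries decided the smaller calls. The count at 200 µM against GD was 3 without GD replicate 1 and 3 without the 200 µM replicate 1, and it was 4 without the 200 µM replicate 2 or replicate 3. Of all 12314 tested genes 3682, 3242, 3289 and 3586 were higher in these fits, in the same order, and 1091, 1132, 1349 and 1108 lower. Aurka lost its call when any 1 of 7 libraries was left out, at adjusted p between 0.0512 and 0.134, namely GD replicate 1, the 200 µM replicate 1, the 200 µM replicate 2, the 200 µM replicate 3, control replicate 1, control replicate 2 and control replicate 3. Spc25 was not called without GD replicate 1 (adjusted p = 0.0841) or without the 200 µM replicate 1 (0.0960) or 2 (0.0592). Nuf2 was not called without GD replicate 1 (0.0912) or 2 (0.0735) or without the 200 µM replicate 1 (0.107) or 3 (0.124). Tpx2 was not called without the 200 µM replicate 3 (0.0852). Fam210b, which overlaps Aurka, had 4.58, 4.05 and 4.24 TPM at 200 µM and 3.61, 3.67 and 3.23 TPM in GD, and its part in the Aurka values was not tested.

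The doses were also compared directly. At 200 µM against 100 µM, Cdk1 was higher by 0.76 (SE 0.11, limma adjusted p = 0.000237), Aurka by 0.40 (SE 0.10, adjusted p = 0.00897), Tpx2 by 0.38 (SE 0.13, adjusted p = 0.0397) and Cdc25c by 0.33 (SE 0.11, adjusted p = 0.0291), and the number called lower was 0, with 1, Ccnb2, lower at an unadjusted p under 0.05. Among all tested genes 25.7% were higher and 8.06% lower. Incenp averaged 5.07 TPM at 200 µM and 7.43 TPM at 100 µM, a difference of -0.44 that was not called (adjusted p = 0.125) as deposited but was on the median-of-ratios scale (-0.59, adjusted p = 0.0154). On that scale 3 members were higher, Cdk1, Aurka and Cdc25c, and 4 lower, Incenp, Ccnb2 (-0.47), Ccna2 (-0.32) and Nuf2 (-0.32), beside 18.6% of all genes higher and 18.5% lower. Without the 100 µM replicate 1 the count as deposited was 2, and without the 100 µM replicate 2 it was 6. Of all 12314 tested genes 2325 were higher and 881 lower in the first of these fits, and 2996 and 856 in the second. Cdc25c was not called without the 100 µM replicate 1 (0.0757) or 3 (0.0954) or the 200 µM replicate 1 (0.105) or 2 (0.0948). Tpx2 lost its call when any 1 of 8 libraries was left out, at adjusted p between 0.0507 and 0.164, namely GD replicate 1, the 100 µM replicates 1 and 2, the 200 µM replicates 1 and 3 and each control replicate.

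**Figure D4:**
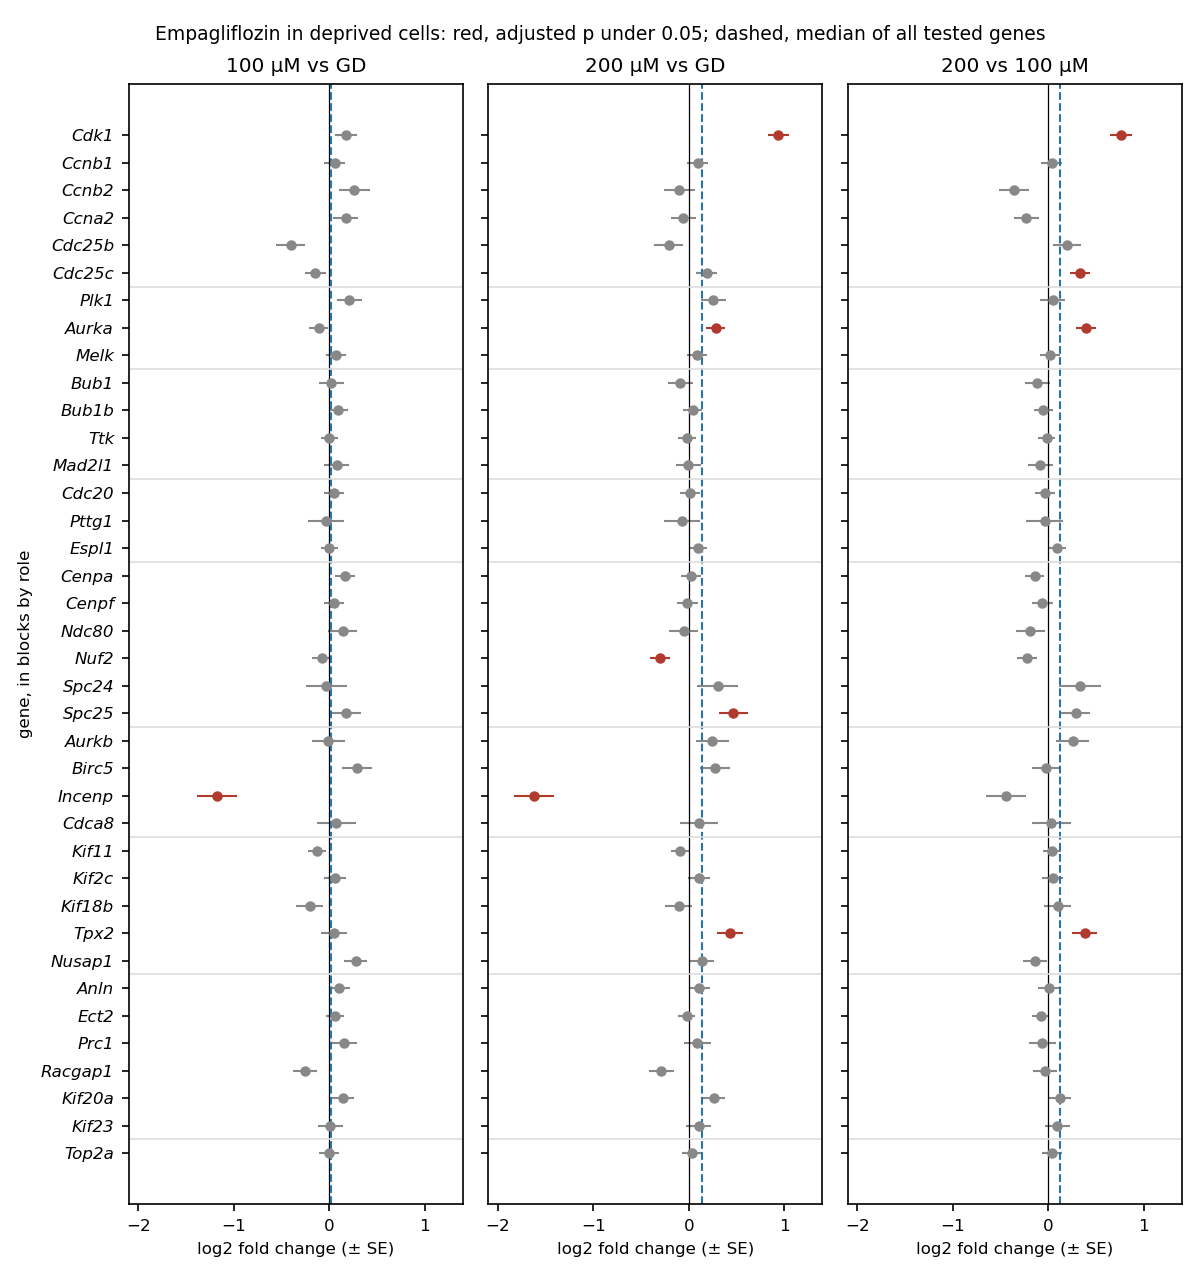
Log2 fold change ± SE of each gene at 100 µM against GD, 200 µM against GD and 200 µM against 100 µM, with red points at an adjusted p under 0.05 and a dashed line at the median of all tested genes. Incenp is far to the left in both comparisons with GD, Cdk1 is far to the right at 200 µM, and the other genes lie near 0.

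The set as a whole stayed low with either dose. As deposited, the 38 genes summed to 65.18, 71.34 and 52.3 TPM in GD libraries. The sums were 45.25, 64.31 and 54.57 TPM at 100 µM and 66.5, 59.95 and 55.38 TPM at 200 µM, and the ranges overlapped. No sum in this paragraph was computed on the median-of-ratios scale, which divides each library by a size factor. Size factors of the GD libraries were 0.88, 0.92 and 0.74, and those of the 200 µM libraries 0.97, 0.99 and 0.93. Division by these lowers the 200 µM sums relative to GD, so the overlap may not hold on that scale. Without Incenp the deposited sums were 44.16, 49.77 and 40.33 TPM in GD, 39.83, 54.45 and 47.57 TPM at 100 µM and 60.92, 54.85 and 50.86 TPM at 200 µM. On this scale the 200 µM libraries then lay above the GD libraries, and the median of all tested genes was also higher at 200 µM, by 0.14. Incenp and Cdk1 were left out after their values were seen. Without Incenp and Cdk1 the ranges overlapped again, with GD libraries at 34.23 to 42.24 TPM, 100 µM libraries at 32.65 to 45.76 TPM and 200 µM libraries at 38.82 to 44.67 TPM. Against control, the 38 genes all fell at 100 µM (median -3.18) and at 200 µM (median -3.11), beside 66.6% of all genes lower and 14.1% higher at 100 µM and 62.8% lower and 13.4% higher at 200 µM. On the median-of-ratios scale all 38 again fell at both doses, beside 38.3% of all genes lower and 38.3% higher at 100 µM and 35.8% lower and 35.1% higher at 200 µM. Incenp, not called in GD against control, fell by 1.57 (limma adjusted p = 1.26e-05) at 100 µM and by 2.02 (adjusted p = 1.72e-06) at 200 µM against control. These comparisons share the control libraries.

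**Figure D5:**
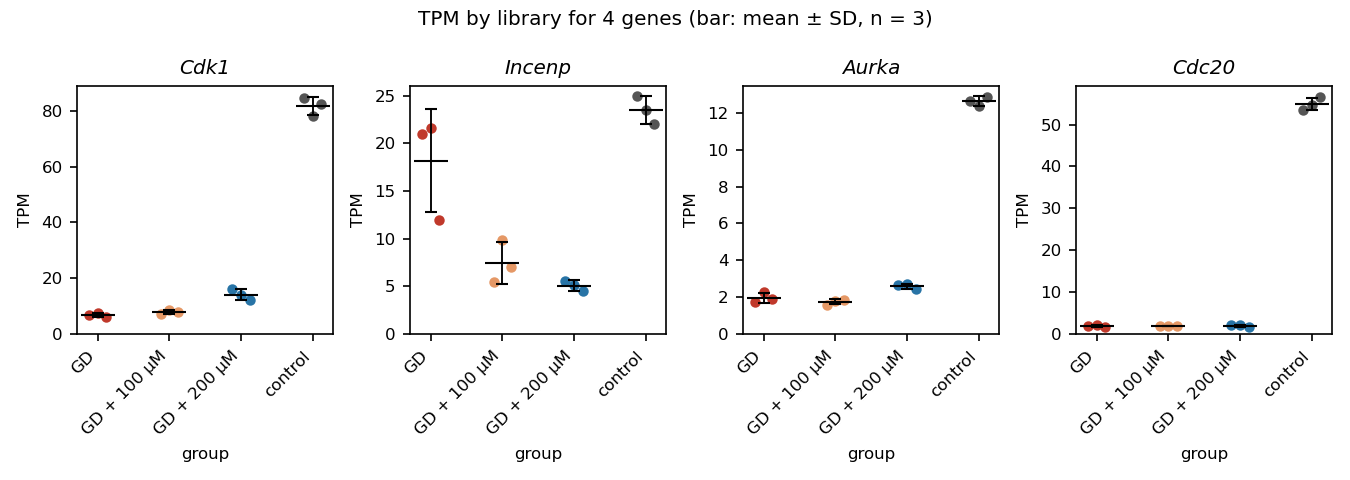
TPM in each library (points) with the mean and SD (n = 3) for 4 genes chosen after their values were seen. Cdk1 and Aurka are highest at 200 µM among the deprived groups, Incenp is high in GD and low with empagliflozin, and Cdc20 is near 2 TPM in all deprived groups.

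Other genes of the same machinery were counted from lists. Subunits of condensin, which compacts chromosomes, fell in 8 of 8 in GD against control on both scales, with Ncaph at -3.26, Smc2 at -2.30 and Ncapd2 at -2.20. Further spindle and cytokinesis genes fell in 18 of 18 on both scales, Kif22 by 4.11, Dlgap5 by 3.23 and Cit by 2.88. Other kinetochore genes fell in 27 of 28, and in 24 on the median-of-ratios scale, with Cenpt at -3.69, Hjurp, the chaperone of the centromeric histone, at -3.15 and Kntc1 at -2.11. The share of all genes called lower is given above, 67.6% as deposited and 38.7% on the median-of-ratios scale. The shares called higher were 14.0% and 38%, and all these shares also apply to the lists of the next paragraph. As deposited the exception was Cenpk, which was higher, with 13.3 ± 2.31 TPM in GD and 8.76 ± 0.82 TPM in control (log2 fold change 0.55, limma adjusted p = 0.00341). On the median-of-ratios scale Cenpk and Zwint were higher, and Zwint turned with the scale, at -0.20 as deposited (adjusted p = 0.0375) and 0.55 on the other (adjusted p = 1.62e-06).

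The anaphase-promoting complex, whose core is present through the cell cycle, was less uniform. Of its 18 subunits and partners 15 were called lower and 1 higher in GD against control, and 10 lower and 4 higher on the median-of-ratios scale. The 1 higher as deposited was Anapc16 (0.23), named after its value was seen. Its mitotic E2 enzyme Ube2c fell by 4.26 as deposited, whereas the core subunit Anapc2 fell by 1.68, Anapc5 by 0.82 and the coactivator Fzr1 by 1.07. On the median-of-ratios scale Ube2c was at -3.55, Anapc2 at -0.92 and Fzr1 at -0.31. Anapc5 was at -0.06 there and not called (limma adjusted p = 0.463). Cohesin and its regulators, 11 genes, had 7 lower as deposited but 6 lower and 4 higher on the other scale. The 6 lower on both were sororin, Cdca5 (-2.75), which protects cohesion, its centromeric guard Sgo1 (-1.81), the cohesin acetyltransferase Esco2 (-1.67), the core subunits Smc3 (-1.22) and Smc1a (-0.92) and the regulator Pds5b (-1.12). The last 3, named after their values were seen, were at -0.49, -0.19 and -0.42 on the median-of-ratios scale. The abscission genes of the ESCRT machinery depended on the scale, with 12 of 15 lower and 1 higher as deposited and 2 lower and 11 higher on the median-of-ratios scale. Chmp1a (-1.09) and Chmp4c (-1.22) were lower on both, Ist1 was at -0.69 as deposited (adjusted p = 1.86e-05) and 0.06 on the other scale (adjusted p = 0.322), and Tsg101 (0.61), named after its value was seen, was higher as deposited.

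Among 18 regulators of these promoters, 13 were lower and 2 higher in GD against control. On the median-of-ratios scale 11 were lower and 6 higher. Of all tested genes 67.6% were lower and 14.0% higher as deposited, and 38.7% lower and 38% higher on the other scale. The same shares apply to the CDK1 list below, and whether either list differed from all genes was not tested. The activators Mybl2, Foxm1 and Mybl1 fell by 3.44, 2.52 and 2.16, and the 2 that rose, named after their values were seen, were the pocket protein gene Rb1 by 1.06 and the MuvB subunit Lin37 by 0.26. Of 13 genes that brake or tune CDK1, 12 were lower and 1 higher, and 9 lower and 1 higher on the other scale. The 1 higher was Arpp19 (0.22). Mastl, which holds back the phosphatase that opposes CDK1, fell by 1.95 and the CDK-binding Cks1b by 1.16. The CDK inhibitor Cdkn1a fell by 0.83 and the CDK1-inhibiting kinase Wee1 by 0.70 as deposited, while on the median-of-ratios scale they were at -0.07 (adjusted p = 0.429) and -0.03 (adjusted p = 0.79).

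At 200 µM against GD these lists moved in both directions, and the tallies depended on the scale. Of all tested genes 32.0% were higher and 11.4% lower as deposited, and 22.7% higher and 24.0% lower on the median-of-ratios scale. The anaphase-promoting complex list had 8 of 18 called as deposited, each of them higher, and 5 higher and 1 lower on the median-of-ratios scale. Anapc2 was higher by 0.68 (SE 0.07, limma adjusted p = 1.48e-05), with 62.8 ± 5.12 TPM at 200 µM against 38.9 ± 1.91 TPM in GD, and Anapc13 was higher by 0.46 (adjusted p = 0.000533). Ube2c was at 0.04 (adjusted p = 0.881) and Fzr1 at 0.01 (adjusted p = 0.957), neither of them called.

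Promoter regulators had 5 of 18 higher and 2 lower as deposited, and 3 higher and 4 lower on the median-of-ratios scale. The shares of all tested genes were again 32.0% higher and 11.4% lower, and 22.7% and 24.0% on that scale. Tfdp2 (1.07) and E2f1 (0.51) were higher, and Foxm1 was called at 0.26 (adjusted p = 0.0421) but not on the median-of-ratios scale (adjusted p = 0.0803). The 2 lower as deposited, named after their values were seen, were Rb1 (-0.59) and Lin54 (-0.44), a MuvB subunit that binds the CHR. Mybl2 was at 0.02 (adjusted p = 0.879) and not called. Of the 13 CDK1 brakes and tuners 2 were higher and 3 lower, and 1 higher and 5 lower on the other scale. Cdkn1a was higher by 0.34 as deposited (adjusted p = 0.00032), with 186.8 ± 7.89 TPM at 200 µM against 147.1 ± 7.42 TPM in GD, and at 0.15 on the other scale (adjusted p = 0.137). The CDK1-inhibiting kinase Pkmyt1 was lower, with 1.09 ± 0.34 TPM at 200 µM against 2.73 ± 0.24 TPM in GD (log2 fold change -0.85, limma adjusted p = 0.000171), and so was Arpp19, at -0.52 (adjusted p = 0.000306). Wee1 was at -0.12 as deposited (adjusted p = 0.439) and -0.29 on the median-of-ratios scale (adjusted p = 0.0129).

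Other kinetochore genes had 3 of 28 higher and 2 lower, and 1 higher and 4 lower on the median-of-ratios scale. For the lists below too, the shares of all tested genes were 32.0% higher and 11.4% lower, and 22.7% and 24.0% on that scale. Cenpk was lower, with 3.33 ± 0.78 TPM at 200 µM against 13.3 ± 2.31 TPM in GD (-1.73, limma adjusted p = 1.47e-06), and Bub3, a checkpoint protein that brings BUB1 to kinetochores, was higher by 0.49 (adjusted p = 7.15e-05). Of 11 cohesin genes 1 was higher, Pds5b (0.35, adjusted p = 0.0438), and 1 lower, Stag2 (-0.41, adjusted p = 0.0147), while 3 were called on the median-of-ratios scale, each of them lower. Abscission genes had 3 of 15 higher, among them Chmp2a (0.36) and Chmp1a (0.29), and 2 lower, whereas 5 were called on the other scale, each of them lower. Of the 8 condensin and 18 further spindle genes limma called 0 as deposited, and 1 and 0 had an unadjusted p under 0.05. On the median-of-ratios scale 4 and 2 of them were lower. The smallest p in these lists belonged to Smc4 (-0.30, adjusted p = 0.0912) and Ncapg2 (-0.17, adjusted p = 0.255) and to Hmmr (-0.19, adjusted p = 0.135) and Ckap2 (0.23, adjusted p = 0.182).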

How the data were processed

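Total RNA of H9c2(2-1) cells was treated with DNase and sequenced by Illumina protocols, per the labels. The authors deposited 1 column of TPM per library. HISAT2 and StringTie appear, without versions, in the submitters' processing notes. Genome build, annotation and strand handling were not given in the sources used here. That the deposited unit is TPM was taken from the values, whose columns sum to nearly 1000000. TPM keep no read numbers, so no counting intervals or floors were computed, and a rise of abundant transcripts lowers the TPM of all others.

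From there, limma 3.58.1 (R 4.3.3) was fitted with a mean-variance trend to log2(TPM + 1) of all 12 libraries in 1 model, over the 12314 of 35966 rows that reached 1 TPM in 3 libraries or more. The 6 comparisons between groups were two-sided, with Benjamini-Hochberg adjustment over all tested rows and a threshold of 0.05. The 38 members were matched by symbol. The code was tested on simulated data. Split symbols (Nipbl and Spag5 among them) were left out of the gene lists, and Cenpp had no row. Members and lists were chosen with earlier results of these data known. Full values are given for the member with the highest mean in each role group, those with the largest and smallest change under deprivation and those called with empagliflozin. Further genes are the 3 of a list with the smallest p in GD against control and the 2 at 200 µM against GD, and Foxm1, Mybl2, Wee1, Cdkn1a, Fzr1 and Ube2c, with exceptions stated. The alternatives were quantile and median-of-ratios scaling, removal of ribosomal protein and ferritin genes, no filter, a filter of 5 TPM, array weights, limma without trend, a pseudocount of 0.1, the compared groups alone, a threshold of 0.01, a replicate block, and each library left out.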

Additional observations from a re-analysis of the deposited data

How the results depend on the processing

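Of 114 results for single members in a deprived group against control, 113 kept their direction and side of the threshold under every alternative that tested them, up to 23. The exception was Incenp in GD against control, whose sign turned to 0.35 under quantile normalization and 0.33 under median-of-ratios scaling. The members' median log2 fold change in GD against control was -2.45 under quantile normalization, -2.66 under median-of-ratios scaling and -4.26 with a pseudocount of 0.1. At 100 µM against control these were -2.44, -2.61 and -4.15, and at 200 µM against control -2.50, -2.63 and -4.17, with -3.25 when ribosomal protein and ferritin genes were removed. At 200 µM against GD the median was -0.16 under quantile normalization, -0.018 under median-of-ratios scaling and 0.15 with a pseudocount of 0.1. The cause of these moves was not tested.

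Members called at 100 µM against GD numbered 3 under quantile normalization, 2 under median-of-ratios scaling, 2 with array weights and 1 to 2 with single libraries left out. Of all 12314 tested genes, quantile normalization called 1115 higher and 1237 lower there, and array weights 1575 higher and 2104 lower. With single libraries left out, 536 to 876 were higher and 371 to 1615 lower. At 200 µM against GD the members called numbered 12 under quantile normalization (1 higher, 11 lower), 3 with no filter, 3 with the compared groups alone, 2 at an adjusted p under 0.01 and 3 to 7 with single libraries left out. Of all 12314 tested genes, quantile normalization called 2746 higher and 3147 lower in this comparison. The compared groups alone gave 3293 higher and 1151 lower, and the threshold of 0.01 gave 2787 and 929. With no filter 3728 of 22319 genes were higher and 1300 lower. With single libraries left out, 3242 to 4212 of the 12314 were higher and 1091 to 2037 lower. At 200 µM against 100 µM the members called numbered 9 under quantile normalization (1 higher, 8 lower), 7 under median-of-ratios scaling, 2 at an adjusted p under 0.01 and 2 to 6 with single libraries left out. Between the doses, quantile normalization called 2271 of all 12314 tested genes higher and 2456 lower. The threshold of 0.01 gave 2041 higher and 568 lower, and single libraries left out gave 2325 to 3850 higher and 702 to 1252 lower.

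With the replicate number as a block, 37 members were called in GD against control, 38 at each dose against control, 1 with 100 µM and 6 with 200 µM relative to GD, and 4 between the doses, as without it. For libraries with the same number the correlation of deviations from the group means was between -0.09 and 0.21 over 18 pairs, 3 of them above 0.1. For libraries with different numbers it was between -0.22 and 0.22. With 3 libraries a group, these values cannot exclude a shared culture or day. Depth is unknown, and 17 members were under 1 TPM in all GD libraries, where differences between deprived groups are poorly resolved.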
